A study of Mus musculus with 12 samples.

Results

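The ephrin, semaphorin and plexin guidance genes were described in mouse spinal cord RNA. They are the ephrins and the Eph receptors that bind them, and the semaphorins and the plexins that bind those. Members were taken by gene symbol and had to reach a mean of 1 TPM (a transcript abundance scaled for transcript length) over all 12 mice. Of 51 symbols matched by name, 48 passed: 7 of 8 ephrins, 12 of 14 Eph receptors, 20 of 20 semaphorins and 9 of 9 plexins. They lie among 15259 genes with that mean, out of 36121 in the deposited table.

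The study compared 3 genotypes of C57BL6 mice aged 3 months, with whole spinal cord from 4 mice each, of which 2 were male and 2 female. Control mice were Tardbp-fl/fl, both copies of Tardbp being floxed, and had no Cre. The cHet mice were Gfap-Cre; Tardbp-fl/+, and the cKO mice were Gfap-Cre; Tardbp-fl/fl. The Cre recombinase was thus driven by Gfap, an astrocyte gene, and every group carried at least 1 floxed Tardbp allele. No group of Cre mice without a floxed allele is compared here. Tardbp encodes TDP-43, a nuclear protein that binds RNA.

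Ephrins are held at the cell surface, ephrin-A by a lipid anchor and ephrin-B by a transmembrane segment, and they signal both through Eph receptors, which are tyrosine kinases, and back into the cell that carries them. Semaphorins are secreted or membrane-bound ligands that act through plexins, often with a neuropilin as co-receptor, and collapse the growing tip of an axon by acting on small GTPases. In the spinal cord these systems are known for steering axons during development, for barriers at the midline, and in adults for roles in synapses, in myelinating cells and after injury.

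The whole cord holds many cell types, so a lower level can come from fewer cells of a type or from less RNA per cell, which cannot be told apart in bulk tissue. The sequencing depth behind the values is unknown, since TPM keeps no depth. Each library held between 15188 and 15384 genes at 1 TPM or more, and the deposited values summed to between 954895 and 1048381 per library. These sums did not overlap between control and cKO, with means of 967165 and 1031670. The mean of Tardbp itself was 171 ± 6.73 TPM (SD, n = 4) for control mice, 170.4 ± 8.64 for cHet and 148 ± 5.06 for cKO, a log2 change of -0.20 in cKO against control (limma, adjusted p = 0.0113). Gfap, the astrocyte filament gene whose promoter drives Cre, was at 1175 ± 55.5, 1123 ± 56.8 and 1391 ± 135 TPM (cKO against control log2 0.24, limma adjusted p = 0.0386). Marker lists for neurons, motor neurons, astrocytes, oligodendrocytes, microglia and endothelium were read, and no listed marker was at 0 in every mouse. A level above 0 in any mouse is a low bar, so this is no test of the labelled tissue.

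The levels of the guidance genes in control cord spanned a wide range, and the ligands stood at the top. Efnb3 and Sema4d had means of 100 TPM or more over the 12 mice, 11 members lay between 20 and 100 TPM, 26 between 5 and 20 TPM, and 9 under 5 TPM. By the same means over the 12 mice, the median member was at 11.9 TPM, beside 17.4 TPM over all genes tested. The highest member exceeded the lowest by 66.2 times. The 5 highest members held 43.2% of the members' summed level in control. Over the 4 control mice the coefficient of variation of a member had a median of 6.47% and ran from 2.62% to 29.3%. When members were ordered by their control mean, the 4 control mice of neighbouring members overlapped in 38 of 47 neighbouring pairs, so the order is resolved only in the other 9.

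**Figure D1:**
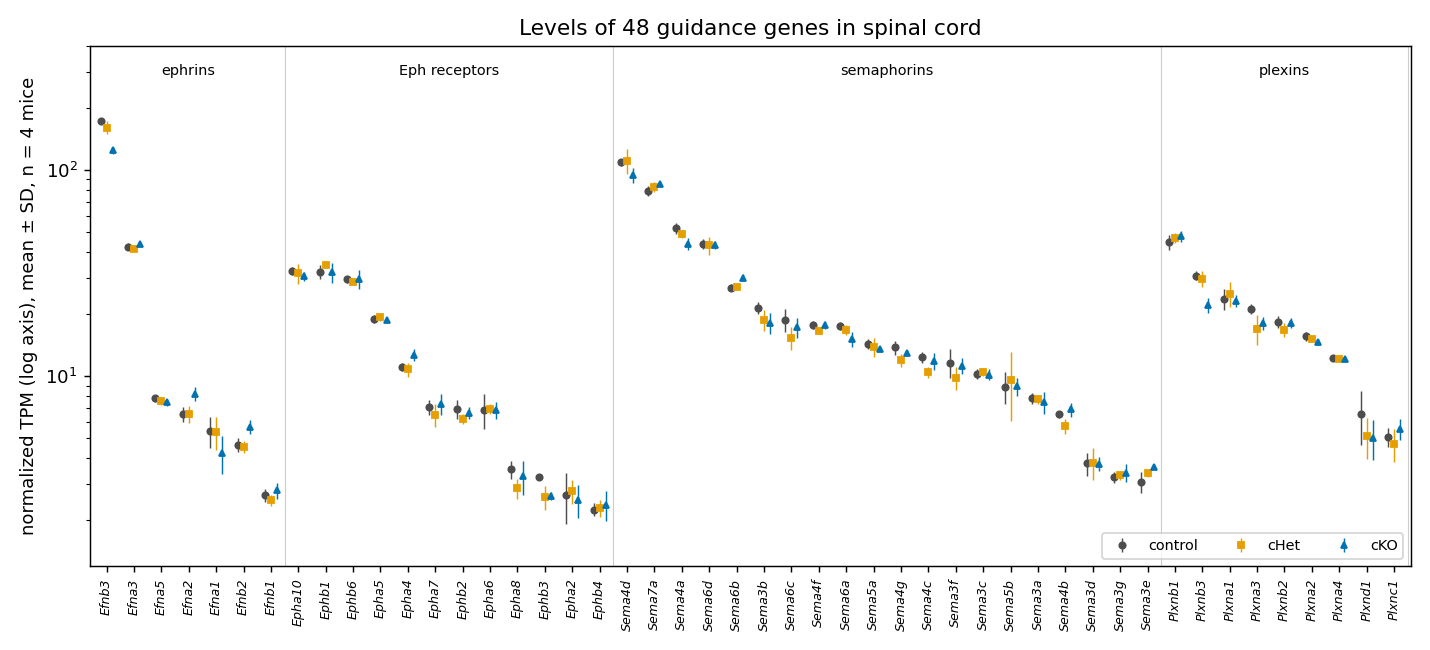
Normalized TPM on a log axis (mean ± SD, 4 mice) of each of the 48 members in control (circles), cHet (squares) and cKO (triangles), ordered by level within ephrins, Eph receptors, semaphorins and plexins. Efnb3 stands highest, and for most members the 3 symbols lie nearly on each other.

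By family, ephrin-B was led by Efnb3 at 173 TPM in control and ephrin-A by Efna3 at 42.5 TPM. Among the receptors, Epha10, an Eph whose kinase domain lacks activity, led the EphA family at 32.4 TPM and Ephb1 led the EphB family at 32.04 TPM. The highest of the secreted class 3 semaphorins was Sema3b at 21.4 TPM. Of the membrane-bound classes, Sema4d led class 4 at 109 TPM, Sema5a class 5 at 14.4 TPM and Sema6d class 6 at 43.9 TPM. Sema7a, the lipid-anchored class 7 member, was at 79.3 TPM. Of the plexins, Plxnb1, the receptor of Sema4d, led the B family at 44.7 TPM and Plxna1 the A family at 23.7 TPM, with Plxnd1 at 6.56 TPM and Plxnc1, a receptor of Sema7a, at 5.07 TPM. Nearest to the expression minimum, Ephb4 and Efnb1 had means of 2.31 and 2.65 TPM over the 12 mice, and Epha1 and Epha3 missed it at 0.753 and 0.679 TPM, as did Efna4 at 0.285 TPM.

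Loss of both Tardbp alleles in Gfap-Cre cells was compared with control. A gene is called here at an adjusted p under 0.05 from limma, a linear model of log2(TPM + 0.5) fitted over all genes and all 12 mice. Of the 48 members, 5 were called, or 10.4%, beside 9.00% of all 15259 genes, so the share of members called was near that of all genes. The ephrin-B ligand Efnb3, the semaphorin Sema4a and the plexin Plxnb3 fell, which is 6.25% of members beside 3.25% of all genes called lower. The ephrin-A ligand Efna2 and the class 6 semaphorin Sema6b rose, which is 4.17% of members beside 5.75% of all genes called higher. No Eph receptor was called. The split depends on the scaling between libraries: with median-of-ratios rescaling 1 member was called higher and 4 lower, and with rescaling that leaves out mitochondrially encoded genes 0 were called higher and 4 lower. Over all genes the split was 878 higher and 496 lower as deposited, 699 and 575 with median-of-ratios rescaling, and 473 and 822 without mitochondrially encoded genes.

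Efnb3 (ENSMUSG00000003934, chr11:69554092-69560205, minus strand, GRCm38), known as a repellent at the midline of the cord and in myelin, was the most abundant guidance gene. Its 4 control mice were at 178, 165, 176 and 173 TPM, its 4 cHet mice at 143, 166, 167 and 166 TPM, and its 4 cKO mice at 131, 118, 126 and 125 TPM. Every cKO mouse was below every control and every cHet mouse, while cHet and control overlapped. The mean fell by 27.7% from control to cKO, a log2 change of -0.47 ± 0.050 (SE) with a 95% confidence interval of -0.58 to -0.36 (limma, adjusted p = 0.000196). Efnb3 also fell against cHet (log2 -0.36, adjusted p = 0.00133).

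Plxnb3 (chrX:73757090-73772514, plus strand), the plexin known as a receptor of Sema5a, was at 29.7, 33.0, 30.2 and 29.97 TPM in control, at 33.5, 28.5, 29.2 and 27.7 TPM in cHet, and at 21.8, 22.6, 24.2 and 19.7 TPM in cKO. The cKO mice again lay below all others. The mean fell by 28.1%, with a log2 change of -0.47 ± 0.071 and an interval of -0.62 to -0.31 (limma, adjusted p = 0.0017), and the change against cHet was -0.42 (adjusted p = 0.00451). Its ligand gene Sema5a did not pass the test, with log2 -0.08 (interval -0.23 to 0.07, adjusted p = 0.56). The other B plexins, Plxnb1 and Plxnb2, had log2 changes of 0.10 (adjusted p = 0.415) and -0.01 (adjusted p = 0.957).

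Sema4a (chr3:88435959-88461182, minus strand), a membrane-bound ligand of B and D plexins, was at 56.7, 49.7, 52.8 and 49.6 TPM in control, at 50.01, 51.3, 47.7 and 46.5 TPM in cHet, and at 39.8, 45.1, 47.0 and 43.5 TPM in cKO. Control and cKO did not overlap, and cHet overlapped with both. The log2 change was -0.25 ± 0.058 (limma, adjusted p = 0.0201), and leaving out control replicate 1, control replicate 3 or cKO replicate 4 ended the call, with adjusted p of 0.0527, 0.0520 and 0.0516. The change against cHet was -0.16 (adjusted p = 0.17).

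Of the members that rose, Efna2 (chr10:80179482-80190010, plus strand), an ephrin-A that binds EphA receptors, was at 7.35, 6.15, 6.22 and 6.47 TPM in control, at 6.56, 5.96, 7.40 and 6.26 TPM in cHet, and at 7.92, 8.39, 9.09 and 7.53 TPM in cKO. The cKO mice lay above all others. The log2 change against control was 0.31 ± 0.084 (limma, adjusted p = 0.0389), and that against cHet was 0.31 (adjusted p = 0.0561). The call against control was lost in 9 of 18 alternative settings, at an adjusted p of up to 0.108, among them leaving out control replicate 2, 3 or 4 or cKO replicate 1, 2 or 3 and both rescalings.

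Sema6b (chr17:56123085-56140343, minus strand), a transmembrane ligand of A plexins, was at 28.4, 26.8, 26.1 and 26.2 TPM in control, at 26.9, 27.3, 26.6 and 27.4 TPM in cHet, and at 29.9, 29.6, 29.2 and 31.6 TPM in cKO. All 4 cKO mice lay above the other 8. The log2 change was 0.16 ± 0.039 against control (limma, adjusted p = 0.0259) and 0.15 against cHet (adjusted p = 0.0477). The first call was lost in 8 of 18 alternative settings and the second in 13 of 18, among them leaving out any one of the 8 mice, at an adjusted p of up to 0.138. Without control replicate 2, 3 or 4 the adjusted p against control was 0.0644, 0.0721 and 0.0695, and without cKO replicate 1, 2 or 4 it was 0.0501, 0.0544 and 0.0775. Rescaling without mitochondrially encoded genes gave log2 0.11 (adjusted p = 0.128). By contrast the calls of Efnb3 and Plxnb3 held in 18 of 18 settings against control and in 18 of 18 against cHet.

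**Figure D2:**
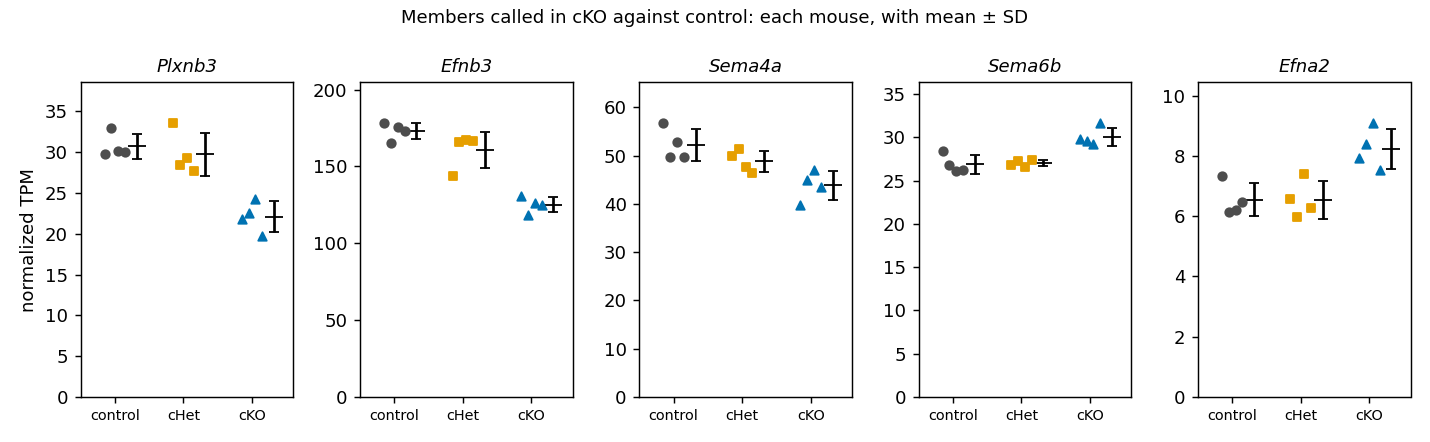
Normalized TPM (linear axis from 0) of the 5 members called in cKO against control, with a symbol for each mouse and a bar for the mean ± SD (n = 4). In Plxnb3 and Efnb3 all cKO mice lie below all control and cHet mice, in Sema6b and Efna2 above them, and in Sema4a only below the control mice.

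The starts of Plxnb3 and Efna2, which each have a single promoter window in the RefSeq table (GRCm38.p6), are shown because one fell and the other rose. Each window runs from 250 bases before to 50 after the start, 5′ to 3′ on the gene's strand, at chrX:73756853-73757152 (plus strand) and chr10:80179232-80179531 (plus strand). Capitals mark the letters ACAAAG, a core known from Sox factors, and GGGCGG, the GC box, searched on both strands.
Plxnb3: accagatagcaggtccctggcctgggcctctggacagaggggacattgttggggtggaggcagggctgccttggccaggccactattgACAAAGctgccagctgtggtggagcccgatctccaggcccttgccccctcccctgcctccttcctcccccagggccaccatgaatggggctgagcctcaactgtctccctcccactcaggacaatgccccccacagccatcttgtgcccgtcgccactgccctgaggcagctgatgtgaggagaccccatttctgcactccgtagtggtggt
Efna2: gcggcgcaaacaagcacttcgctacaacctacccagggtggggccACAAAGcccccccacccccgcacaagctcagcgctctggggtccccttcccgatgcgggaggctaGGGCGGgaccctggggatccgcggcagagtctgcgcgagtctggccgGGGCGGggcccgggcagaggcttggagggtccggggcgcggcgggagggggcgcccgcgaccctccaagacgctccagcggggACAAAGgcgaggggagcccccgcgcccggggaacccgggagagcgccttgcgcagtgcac
The Plxnb3 window held 1 ACAAAG and 0 GGGCGG, and the Efna2 window 2 of each. Of 48 members, 42 matched the table, with 56 windows in all. ACAAAG was in 9 of these 56 windows (16.1%), beside 18.7% of all 32851 windows of the same length. GGGCGG was in 43 of 56 (76.8%), beside 35.7% of all windows. The set of all windows was not limited to genes with a mean of 1 TPM, as the members were. The median GC content was 64.3% in members' windows and 52.7% in all windows, so the windows also differ in base composition, and the part of that in the GGGCGG share was not tested.

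**Figure D3:**
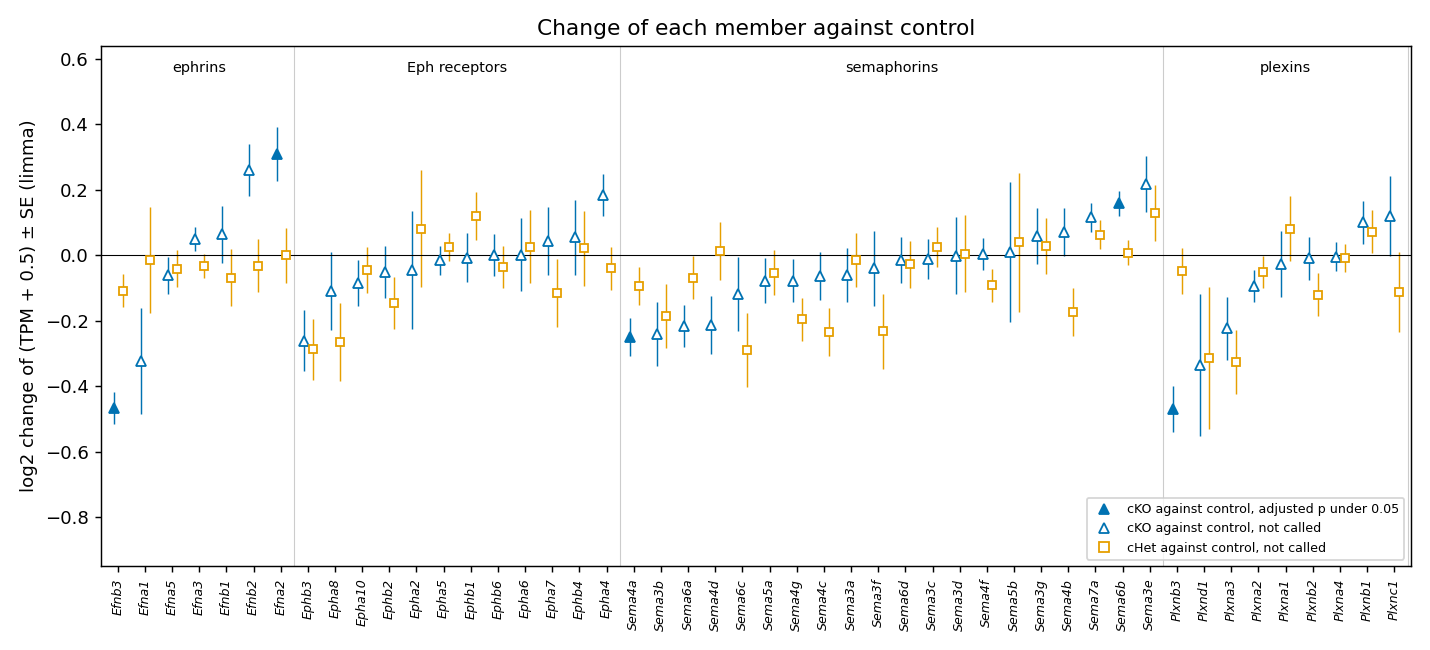
Log2 change of TPM + 0.5 against control (limma, ± SE) for each of the 48 members in cKO (triangles, filled where the adjusted p was under 0.05) and cHet (squares, none called). The filled triangles are Efnb3, Sema4a and Plxnb3 below 0 and Efna2 and Sema6b above it.

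Groups that do not overlap are a second description that needs no model. It was counted on the deposited values, so it still depends on the scaling between libraries. Between cKO and control, 5 members had all 4 cKO mice above all 4 control mice, or 10.4% of 48, beside 10.5% of all genes. These were Efna2, Efnb2, Epha4, Sema3e and Sema6b. In 7 members, or 14.6%, all cKO mice were below all control mice, beside 6.59% of all genes. These were Efnb3, Ephb3, Plxna3, Plxnb3, Sema4a, Sema4d and Sema6a. Over all 48 members the median log2 change was -0.02 (all genes 0.01), and 18 of 48 were above 0, or 37.5%, beside 54.2% of all genes. Those above 0 were 14 of 48 with median-of-ratios rescaling, beside 49.0% of all genes. They were 12 of 48 with rescaling that leaves out mitochondrially encoded genes, beside 38.5%.

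Several of the members whose cKO and control mice did not overlap did not pass the test. Among the ephrins, Efnb2, a transmembrane ligand known from blood vessels as well as axons, was at 5.12, 4.58, 4.72 and 4.22 TPM in control and at 6.29, 5.28, 5.71 and 5.45 TPM in cKO (log2 0.26, limma adjusted p = 0.0655). Of the Eph receptors, Epha4, which binds both kinds of ephrin and is the receptor of Efnb3 in the midline circuits of the cord, was at 11.3, 11.6, 10.5 and 10.95 TPM in control and at 13.5, 11.7, 13.2 and 12.2 TPM in cKO (log2 0.18, adjusted p = 0.108). Ephb3 was at 3.13, 3.33, 3.27 and 3.25 TPM in control, at 2.84, 2.90, 2.40 and 2.18 in cHet and at 2.63, 2.80, 2.53 and 2.54 in cKO (cKO against control log2 -0.26, adjusted p = 0.106). In Ephb3 both Cre groups lay below the 4 control mice.

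Among the semaphorins, Sema4d, the axon-repelling ligand of Plxnb1, was at 114, 103, 109 and 110 TPM in control and at 90.3, 97.8, 103 and 86.3 TPM in cKO. The cHet mice spread from 91.7 to 129 TPM, across both. The log2 change in cKO against control was -0.21 (interval -0.41 to -0.02, limma adjusted p = 0.175). Sema6a, a ligand of A plexins, averaged 17.6 TPM in control and 15.1 TPM in cKO (log2 -0.22, adjusted p = 0.0603). It passed the test under both rescalings, with log2 -0.23 and -0.27. Sema7a was at 79.3 ± 4.57 TPM in control and 85.9 ± 0.881 TPM in cKO, with overlapping mice (log2 0.12, adjusted p = 0.141), and its receptor gene Plxnc1 was at 5.07 ± 0.538 and 5.56 ± 0.658 TPM (log2 0.12, adjusted p = 0.626). Sema3e, the secreted ligand of Plxnd1, averaged 3.07 TPM in control and 3.64 TPM in cKO (log2 0.22, adjusted p = 0.148). Plxnd1 was at 6.56 ± 1.92 and 5.03 ± 1.13 TPM (log2 -0.34, interval -0.81 to 0.14, adjusted p = 0.404), the widest error among the members.

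Plxna3, a receptor for class 3 semaphorins, was at 20.4, 21.2, 20.5 and 22.9 TPM in control, at 18.7, 14.4, 14.9 and 19.9 TPM in cHet and at 20.1, 18.1, 17.3 and 17.1 TPM in cKO. Both Cre groups lay below control, with log2 changes of -0.33 in cHet (adjusted p = 0.267) and -0.22 in cKO (adjusted p = 0.194). For 44 of the 48 members, the 95% interval of the change in cKO against control lay within 0.5 on either side of 0, so larger changes are outside the interval for those.

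By class, the summed level of the 7 ephrins was 243 ± 5.57 TPM for control, 229 ± 11.2 for cHet and 197 ± 6.01 for cKO mice. The 12 Eph receptors summed to 157 ± 3.37, 155 ± 2.50 and 155 ± 5.23 TPM. The 20 semaphorins summed to 483 ± 12.2, 471 ± 17.0 and 460 ± 10.9 TPM, and the 9 plexins to 178 ± 8.61, 173 ± 7.31 and 167 ± 5.24 TPM. Together the members summed to 1060 ± 10.99 TPM in control and 979 ± 20.2 TPM in cKO. Efnb3 alone held 16.3% of that sum in control and 12.8% in cKO, and without it the sums were 887 ± 8.14 and 854 ± 19.8 TPM. The mean of Efnb3 itself went from 173 TPM in control to 125 TPM in cKO. Among the 7 ephrins the median log2 change in cKO against control was 0.05, and 4 were above 0, so the lower ephrin sum was not shared by most ephrins.

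**Figure D4:**
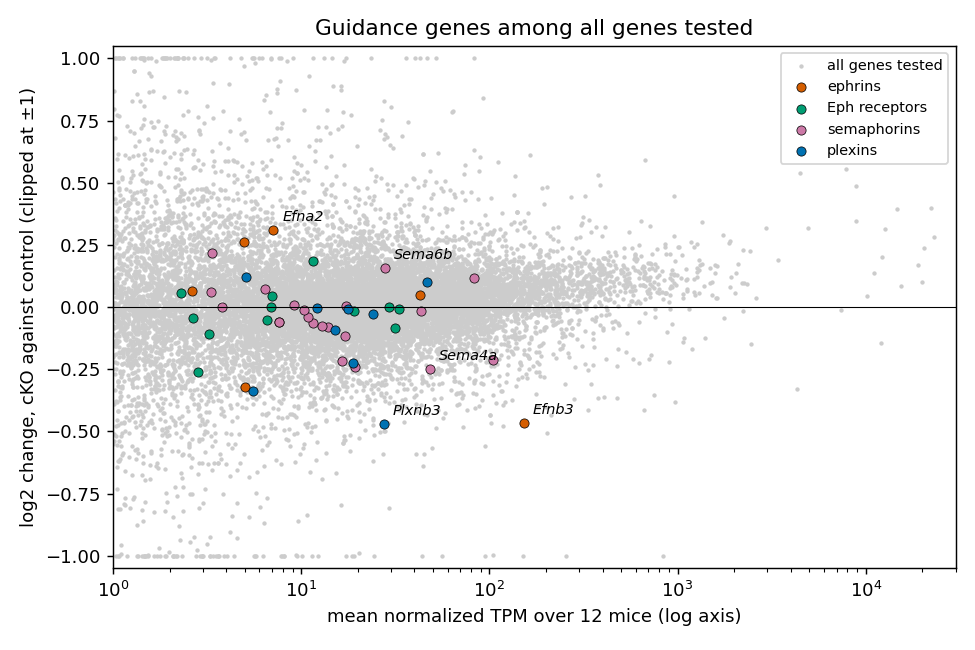
Log2 change in cKO against control (clipped at 1 on either side, which moves 120 genes to the edge) against the mean TPM over 12 mice on a log axis, for all genes tested (grey) and the members (coloured by class). Most members lie within the grey cloud, and Efnb3 and Plxnb3 lie at its lower edge for their level.

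Another pair of tests of the same mice is in the authors' deposited table. By its likelihood ratio test at a q under 0.05, 6 members were called in cKO against control (12.5%, beside 9.42% of all genes in that table): the 5 above and Epha4. By its Wald test 9 were called (18.8%, beside 10.2%): these 6 with Sema6a, Sema4d and Sema7a. In the authors' deposited table for cKO against cHet, the likelihood ratio test called Efnb3, Plxnb3, Sema6b and Efna2 (8.33%, beside 3.78%) and the Wald test Sema4b as well (10.4%, beside 4.94%). Sema4b is named here because its value was seen.

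Markers of several cell types were compared between the same groups. Of 12 genes of mature oligodendrocytes, the myelin-forming cells, 9 fell in cKO against control, with a median log2 change of -0.36, beside 0.01 over all genes, of which 3.25% were called lower and 5.75% higher. Their summed level was 21566 to 22600 TPM for control, 21586 to 25657 for cHet and 17898 to 20384 for cKO mice. Efnb3 and Plxnb3 fell between the same groups. The cKO mouse with the lowest oligodendrocyte sum, replicate 4 at 17898 TPM, also had the lowest Plxnb3 of all mice, 19.7 TPM, while its Efnb3 was at 125 TPM. The cHet mouse with the lowest oligodendrocyte sum, replicate 1 at 21586 TPM, had the lowest Efnb3 of its group, 143 TPM, and the highest Plxnb3, 33.5 TPM. The cHet mouse with the highest sum, replicate 4 at 25657 TPM, had the lowest Plxnb3 of its group, 27.7 TPM. The lowest Efnb3 of the cKO mice, 118 TPM, was in replicate 2, with a sum of 19992 TPM. Of 10 microglia markers 7 rose, with sums of 265 to 276 TPM in control and 343 to 373 in cKO. Of 12 astrocyte markers 4 rose and 2 fell, with sums of 3910 to 4116 TPM in control and 4763 to 5189 in cKO. Of 10 genes of oligodendrocyte precursors 3 fell. Of 14 neuron markers 3 rose, and 0 of 8 endothelial and 0 of 6 motor neuron markers were called. Of 7 meningeal fibroblast markers 1 rose and 1 fell, with sums of 870 to 1189 TPM in control and 492 to 567 in cKO. Their median log2 change was -0.01, so the lower sum was not shared by the median marker of that list. The part of these cell types in the changes of the guidance genes was not tested.

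Mice with Gfap-Cre and 1 floxed allele were compared with the same control mice. No member was called, 0 of 48, and over all genes limma also called 0 of 15259 (0%). At an unadjusted p under 0.05 there were 7 members, or 14.6%, beside 11.3% of all genes. With median-of-ratios rescaling there were 8 members, beside 1626 of 15259 genes. With rescaling that leaves out mitochondrially encoded genes there were 14 members, beside 1895 genes. In the values as deposited, the lowest adjusted p of a member was 0.267 (limma), for Plxna3. The likelihood ratio test in the authors' deposited table called 0 members (0% of all genes) and the Wald test 0 members (0.156% of all genes). No member had all 4 cHet mice above all control mice, beside 4.12% of all genes. In 4 members, or 8.33%, all cHet mice lay below all control mice, beside 2.10% of all genes. Those were Ephb3 and Plxna3, given above, and Epha8 and Sema4c, which are named because their values were seen. Epha8 averaged 3.54 ± 0.36 TPM in control and 2.87 ± 0.319 in cHet (log2 -0.26, limma adjusted p = 0.437). Sema4c averaged 12.4 ± 0.764 and 10.5 ± 0.649 TPM (log2 -0.23, adjusted p = 0.283).

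In cHet against control the median member changed by -0.04 on the log2 scale (all genes 0.01), and 15 of 48 members were above 0, or 31.2%, beside 55.2% of all genes. Those above 0 were 13 of 48 with median-of-ratios rescaling, beside 50.6% of all genes. They were 6 of 48 with rescaling that leaves out mitochondrially encoded genes, beside 33.4%. None of the 5 members called in cKO passed in cHet. Efnb3 had a log2 change of -0.11 ± 0.050 (adjusted p = 0.442), Plxnb3 -0.05 ± 0.071 (adjusted p = 0.85), Sema4a -0.09 ± 0.058 (adjusted p = 0.586), Efna2 0.00 ± 0.084 (adjusted p = 0.999) and Sema6b 0.01 ± 0.039 (adjusted p = 0.958). For 43 of 48 members the 95% interval lay within 0.5 on either side of 0.

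The cKO mice were also set against the cHet mice, which share Gfap-Cre and differ in the second floxed allele. This comparison uses the same cKO mice as the first, so its values are given side by side with it and are no separate support. Of 48 members 3 were called, or 6.25%, beside 5.01% of all genes. Efnb3 and Plxnb3 fell (4.17%, beside 2.61% of genes called lower) and Sema6b rose (2.08%, beside 2.41% of genes called higher). With either rescaling 0 members were called higher and 2 lower. All 4 cKO mice were above all 4 cHet mice in Efna2, Efna3, Efnb2, Sema3e and Sema6b, which is 10.4% of members beside 6.14% of all genes, and below them in Efnb3 and Plxnb3 alone, which is 4.17% beside 5.33%. Efna3, the most abundant ephrin-A, averaged 41.5 ± 1.196 TPM in cHet and 44.0 ± 0.931 in cKO (log2 0.08, limma adjusted p = 0.27). Efnb2 had log2 0.29 (adjusted p = 0.0595).

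A list of 16 co-receptors and other partners of the guidance genes was read, of which 14 were measured. In cKO against control 3 rose (21.4%) and 1 fell (7.14%), beside 5.75% of all genes called higher and 3.25% lower. The neuropilins, which hold class 3 semaphorins for plexins to signal, both rose. Nrp1 was at 10.8, 11.6, 10.4 and 12.4 TPM in control and at 14.0, 13.3, 14.4 and 13.6 TPM in cKO (log2 0.28, limma adjusted p = 0.0113). All cKO mice lay above all control mice. Nrp2 averaged 13.2 ± 0.736 TPM in control and 15.2 ± 0.406 in cKO (log2 0.20, adjusted p = 0.0312). The Nrp2 call was lost when control replicate 3 or 4 or cKO replicate 2, 3 or 4 was left out, and without mitochondrially encoded genes, at an adjusted p of up to 0.0971. Cntn2, a contactin of axons and of oligodendrocytes that can join semaphorin receptors, fell from 100.3 ± 3.64 to 77.3 ± 4.13 TPM (log2 -0.37, adjusted p = 0.000362). Trem2, a microglial receptor that can pair with plexin A1, was at 8.25 ± 1.32 and 12.1 ± 0.869 TPM (log2 0.54, adjusted p = 0.00519), and it is also among the 10 microglia markers. Trem2 stands in the table under a second identifier with the same values, so its reads may have been split between them and the printed TPM may understate the level of the gene. Against cHet, Nrp1 (log2 0.32, adjusted p = 0.007) and Trem2 (log2 0.53, adjusted p = 0.00774) rose, and Cntn2 (log2 -0.33, adjusted p = 0.00115) and Adam10 (log2 -0.19, adjusted p = 0.0232), a protease that sheds ephrins, fell. The Adam10 call was lost in 6 of 18 settings, among them leaving out cHet replicate 3 or 4 or cKO replicate 1, 2 or 4, at an adjusted p of up to 0.0637.

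Of 57 effectors that act inside the cell below Eph receptors and plexins, all 57 were measured, and 2 rose (3.51%) and 4 fell (7.02%) in cKO against control. Together that is 10.5% of the list, near the 9.00% of all genes called (5.75% higher and 3.25% lower). Ngef, the RhoA exchange factor known as ephexin that EphA receptors activate, was at 35.1, 31.5, 31.8 and 34.0 TPM in control, at 32.7, 35.9, 34.9 and 32.7 in cHet and at 41.7, 44.6, 46.8 and 46.7 TPM in cKO. The cKO mice lay above all others, with log2 0.44 (limma, adjusted p = 0.000354). Abl1, a tyrosine kinase, averaged 39.6 ± 1.45 TPM in control and 31.5 ± 0.93 in cKO (log2 -0.33, adjusted p = 0.00694). Dpysl2, which encodes the semaphorin-response protein CRMP2, averaged 59.7 ± 1.55 and 54.5 ± 1.61 TPM (log2 -0.13, adjusted p = 0.0217). That call was lost without control replicate 3 or 4 or cKO replicate 1, 2 or 4, at an adjusted p of up to 0.0634. Rnd2, a small GTPase that binds plexins, averaged 369.7 ± 4.39 and 411.3 ± 18.002 TPM (log2 0.15, adjusted p = 0.0222), and its call was lost without control replicate 1 or 4 or cKO replicate 2 or 4, at up to 0.0682, and with no trend (0.0516). Against cHet, Ngef rose (log2 0.40, adjusted p = 0.000894), and Dpysl2 (log2 -0.25, adjusted p = 0.000649), Abl1 (log2 -0.30, adjusted p = 0.0148) and Chn2 (log2 -0.24, adjusted p = 0.0409), a Rac-inactivating protein, fell. The Abl1 call against cHet was lost with only the 8 mice compared in the fit (adjusted p = 0.053). The Chn2 call was lost in 11 of 18 settings, among them leaving out cHet replicate 1, 3 or 4 or cKO replicate 1, 2 or 4, at an adjusted p of up to 0.117.

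In the neighbouring guidance systems of Slits, netrins and RGM proteins, 22 of 26 listed genes were measured, and 0 rose and 3 fell (13.6%) in cKO against control, beside 5.75% of all genes called higher and 3.25% lower. Unc5b, a netrin receptor, was at 29.3, 26.6, 23.9 and 28.4 TPM in control and at 21.7, 20.6, 19.7 and 17.1 TPM in cKO (log2 -0.44, limma adjusted p = 0.00638). Neo1, the receptor neogenin, averaged 34.7 ± 0.33 and 30.3 ± 1.145 TPM (log2 -0.19, adjusted p = 0.00718). Unc5c averaged 6.04 ± 0.334 and 4.82 ± 0.18 TPM (log2 -0.30, adjusted p = 0.0233), a call lost without control replicate 3 or 4 or cKO replicate 2 or 4, at an adjusted p of up to 0.0704. Against cHet, Neo1 (log2 -0.16, adjusted p = 0.0239) and Unc5b (log2 -0.36, adjusted p = 0.0286) fell. The Neo1 call against cHet was lost without cHet replicate 3 or 4 or cKO replicate 2 or 4, at an adjusted p of up to 0.0748, and at 0.0836 with only the 8 mice compared in the fit. That of Unc5b was lost without cHet replicate 1, 2 or 3 or cKO replicate 2, 3 or 4, at up to 0.0733, and also with only those 8 mice (0.0514) or with no filter on low values (0.0612).

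Over these 3 lists the median log2 change in cKO against control was 0.01 for co-receptors, -0.01 for effectors and -0.01 for Slit, netrin and RGM genes, beside 0.01 over all genes. No gene of the 3 lists was called in cHet against control. The genes with the smallest p there were Ptk7 (log2 -0.17, adjusted p = 0.451) and Rnf5 (log2 0.09, adjusted p = 0.59) among co-receptors, Ntng2 (log2 -0.17, adjusted p = 0.374) and Rgmb (log2 0.12, adjusted p = 0.525) among Slit, netrin and RGM genes, and Mical1 (log2 -0.53, adjusted p = 0.177) and Dpysl2 (log2 0.12, adjusted p = 0.208) among effectors.

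**Figure D5:**
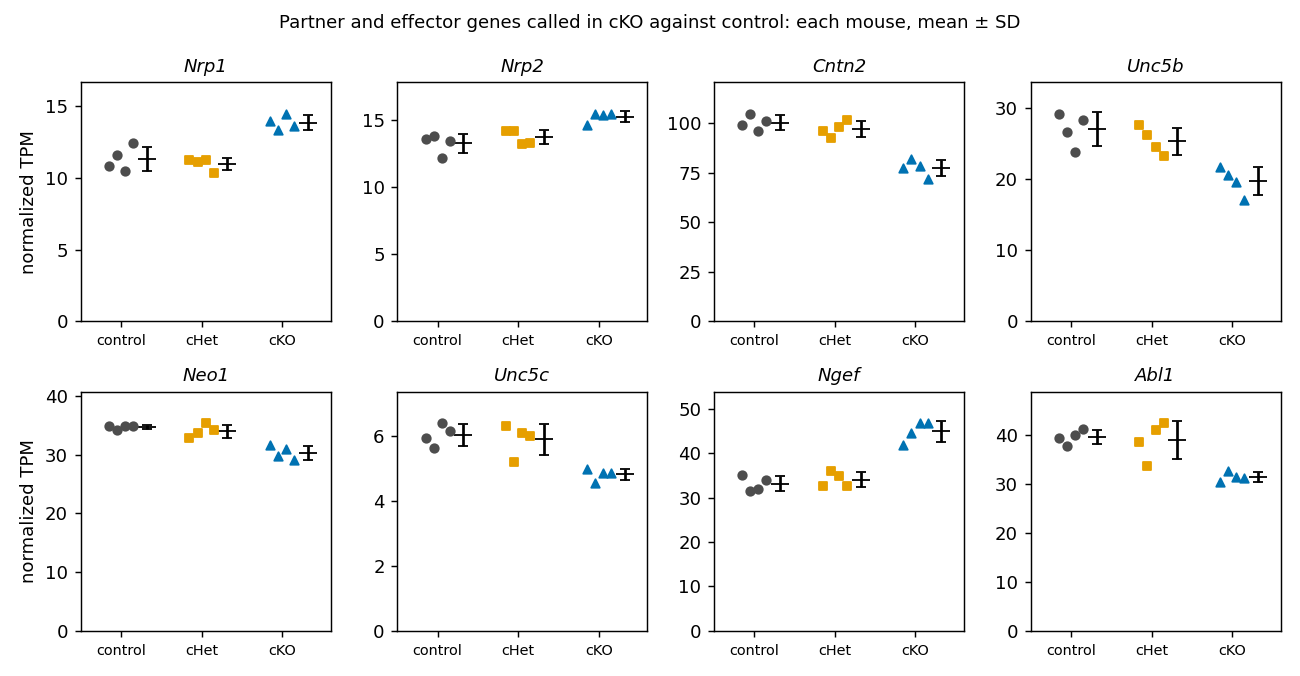
Normalized TPM (linear axis from 0) of 8 called partner, receptor and effector genes in each mouse, with a bar for the mean ± SD (n = 4). The cKO mice lie above all other mice in Nrp1, Nrp2 and Ngef and below them in Cntn2, Unc5b, Neo1, Unc5c and Abl1.

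TDP-43 is known to bind RNA rich in UG, so runs of at least 6 TG repeats (12 bases, on the transcript's strand) were searched for. Every protein-coding transcript of each gene in the GENCODE M21 annotation was searched, and a run in any of them counted. Such a run was in 10 of 48 members (20.8%), beside 8.30% of 14294 genes. Members' longest transcripts were also longer, with a median of 4664 bases beside 3150 bases over all genes. The part of length, or of the number of transcripts per gene, in the share was not tested. Introns are not part of these transcripts and were not searched. None of the 5 called members held a run in the transcripts searched. Of the 10 members with a run, Epha10, Epha5, Ephb1, Plxna4, Sema4c, Sema4f and Sema6d had overlapping cKO and control mice. Runs were also found in 3 members whose cKO and control mice did not overlap, Efnb2, Epha4 and Ephb3, all of them in the 3′ UTR. Each is shown from its start, 5′ to 3′, with capitals for the TG repeat, at chr8:8618494-8618523 (minus strand), chr1:77369084-77369113 (minus strand) and chr16:21223113-21223142 (plus strand) of GRCm38.
Efnb2: tggttcgaTGTGTGTGTGTGTGtatgagtg
Epha4: atagagTGTGTGTGTGTGTGTGTGTGTGTG
Ephb3: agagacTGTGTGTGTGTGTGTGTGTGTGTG
The whole runs span 14 bases in Efnb2, 28 bases in Epha4 and 48 bases in Ephb3. Efnb2 and Epha4 were higher and Ephb3 lower in cKO than in control, by the values above, without passing the test. A match gives the letters only and shows no binding.

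Exons were compared with those of other genes only for the 25 members named by the rule given below. Some of these 25 share bases with another gene. On the opposite strand these were Efna3, Epha10, Ephb1, Ephb4, Plxna1 and Plxnb1, and on the same strand Plxnc1, with a predicted gene, and Sema4a, with a microRNA gene over 73 bases. Whether the library kit marked strand is not given in the sources used here, so reads of such overlaps may not be told apart.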

How the data were processed

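Whole spinal cords of 12 mice were frozen, and Trizol RNA went into TruSeq libraries, per the labels' protocols. The authors deposited a normalized TPM per gene, used here as a signal, with a library scaling of their own; kallisto 0.44.0, sleuth 0.30.0 and the build GRCm38 are named, per the submitters' processing notes. Their annotation and any filter: not given in the sources used here. Also deposited by the authors were p-values and q-values of 2 tests per comparison, and effect scores, whose sign was used for the direction of a change. Unmapped value columns numbered 0.

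Genes averaging 1 TPM or more were kept, 0.5 was added before log2, and limma 3.58.1 (R 4.3.3) compared the groups (eBayes with trend, two-sided, all 12 mice, no covariate, Benjamini-Hochberg over all genes of a comparison). A fold change on the log2(TPM + 0.5) scale understates changes of low genes. The limma step was tested on simulated data. Mice are separate animals per the labels, depth is unknown, and with 4 mice a group the spread is estimated from few animals. Percent changes are of mean TPM. Coordinates come from GENCODE M21.

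The members and lists were chosen with earlier results of these data known. Named with values are members called in any comparison, members whose groups do not overlap in a cKO comparison, the highest member of each family, the symbols nearest to the minimum, Tardbp, Gfap and, per other list, up to 4 called genes by adjusted p or otherwise the 2 with the smallest p. Alternatives were the pseudocount, the filter, the scaling between libraries, sex as a covariate, only the mice compared, no trend, summed copies of a symbol, each mouse left out, and the authors' tests.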

Additional observations from a re-analysis of the deposited data

Results flagged for a closer look

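In 7 of 132 groups of 4 mice, over the genes named with values, the highest or lowest mouse lay far from the other 3. Chance alone gives about 1 in 20 such groups. Efnb3 was lowest in cHet replicate 1 at 143.5 TPM, the others being at 165.6 to 167 TPM. Plxna1 was lowest in control replicate 1 at 19.61 TPM, beside 24.64 to 25.42 TPM. Plxnb3 was highest in control replicate 2 at 32.96 TPM, beside 29.72 to 30.17 TPM. Efna3 was lowest in cKO replicate 4 at 42.58 TPM, beside 44.37 to 44.53 TPM. Of the partner genes, Dpysl2 was lowest in cHet replicate 2 at 63.91 TPM, Neo1 in control replicate 2 at 34.2 TPM and Nrp2 in cKO replicate 1 at 14.61 TPM.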

How the results depend on the processing

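No paired analysis was possible because the labels give no replicate numbers that tie mice of different groups together. In cKO against control 5 members were called. Leaving out a mouse gave 2 to 5, and none was called higher without control replicate 2, 3 or 4 or cKO replicate 1 or 2. The count was 3 without control replicate 2 or 4 or cKO replicate 1, 2 or 4, and 2 without control replicate 3. The authors' Wald test gave 9, no trend gave 7 and the other settings 4 to 6. In cKO against cHet 3 members were called, with 2 to 4 when a mouse was left out and 5 by the authors' Wald test. In cHet against control every setting gave 0. No called change of a named gene reversed in any setting. With 4 mice a group and an unknown depth, precision differed between members: the standard error of a log2 change ran from 0.037 to 0.216, with a median of 0.077.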
